A study of Mus musculus with 8 samples.

Results

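Myh6, Myh7, Myh7b, Mybpc3 and Mybphl encode the myosin heavy chains of the heart and the proteins that bind them in the thick filament. They were taken by symbol from a table of coding gene counts, where each symbol matched 1 Ensembl gene, and all 5 of the 29844 genes in the table had enough reads to be tested, as did 14059 genes in all. The RNA came from cardiomyocytes of E18.5 mouse embryos, grown for 4 days until they formed a confluent, beating layer. All cells carried the H2B-eGFP transgene of the line B6.Cg-Tg(HIST1H2BB/EGFP)1Pa/J, which marks nuclei with a fluorescent histone. Cells of 4 libraries were plated on a stiff silicone rubber (polydimethylsiloxane, PDMS) of about 150 kPa, and cells of 4 others on a soft one of about 10 kPa, which the submitters call physiological. The hearts were digested to single cells with no sort stated, so other heart cell types could be present. The library codes of the substrates have different stems, whose meaning is not given, so that any batch they mark and the substrate cannot be told apart.

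Myosin heavy chains are the motor proteins that pull on actin, and a cardiac thick filament is built from the alpha chain (Myh6), the beta chain (Myh7) or both. The alpha chain splits ATP faster than the beta chain, and in the mouse ventricle Myh7 dominates before birth and Myh6 after it, a switch driven largely by thyroid hormone. Return of Myh7 in the adult rodent heart is a familiar sign of overload, which makes the ratio of these genes a common readout of cardiomyocyte state. Mybpc3 encodes cardiac myosin-binding protein C, which holds myosin heads back until it is phosphorylated. Mybphl encodes a smaller relative of myosin-binding protein H that is found mainly in atria and the conduction system. Myh7b is an ancient heavy chain gene of heart and slow muscle, whose cardiac transcript in mammals is largely processed so that little protein is made.

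The 3 heavy chain genes are also hosts of microRNAs, small RNAs that repress other transcripts through a short seed. The mature forms are shown because they tie the 3 heavy chain genes together by a near-common seed. RefSeq (GRCm38.p6) places the hairpins of miR-208a, miR-208b and miR-499 within the spans of Myh6, Myh7 and Myh7b. Sequences run 5′ to 3′ and the seed, bases 2 to 8, is in capitals.
miR-208a-3p (host Myh6, chr14:54949072-54949093, minus strand): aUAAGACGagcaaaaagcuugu
miR-208b-3p (host Myh7, chr14:54975710-54975731, minus strand): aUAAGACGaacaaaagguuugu
miR-499-5p (host Myh7b, chr2:155622893-155622913, plus strand): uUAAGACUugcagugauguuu
The forms from Myh6 and Myh7 share the seed UAAGACG and are identical at 19 of 22 positions, while miR-499-5p has the seed UAAGACU. The rows Mir208a, Mir208b and Mir499 were listed at 0 in all 8 libraries. Whether the library preparation keeps small RNAs is not given in the sources used here, and nothing is read from these zeros about the mature forms.

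Myh6 (ENSMUSG00000040752) lies on chromosome 14 from 54941921 to 54968017 and Myh7 (ENSMUSG00000053093) 2666 bases further on, from 54970684 to 54994626, both on the minus strand. Myh7b (ENSMUSG00000074652) lies on chromosome 2 from 155611243 to 155634307, Mybpc3 (ENSMUSG00000002100) on chromosome 2 from 91118114 to 91136516 and Mybphl (ENSMUSG00000068745) on chromosome 3 from 108364911 to 108380057. The promoters of the 2 main heavy chain genes are shown because the ratio of their transcripts is described in each library. Each is the 250 bases before a RefSeq start, which for Myh6 lies within the span above, on the minus strand of GRCm38.p6. Capitals mark the M-CAT element CATTCC, a binding sequence of TEAD factors, and GGTGAC, the core of the thyroid hormone element described for Myh6, both searched on either strand.
Myh6, chr14:54966608-54966857: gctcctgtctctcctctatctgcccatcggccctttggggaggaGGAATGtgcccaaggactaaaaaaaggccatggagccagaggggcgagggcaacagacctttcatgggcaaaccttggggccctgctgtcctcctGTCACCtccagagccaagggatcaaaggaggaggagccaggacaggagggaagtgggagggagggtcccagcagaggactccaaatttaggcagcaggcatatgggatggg
Myh7, chr14:54994627-54994876: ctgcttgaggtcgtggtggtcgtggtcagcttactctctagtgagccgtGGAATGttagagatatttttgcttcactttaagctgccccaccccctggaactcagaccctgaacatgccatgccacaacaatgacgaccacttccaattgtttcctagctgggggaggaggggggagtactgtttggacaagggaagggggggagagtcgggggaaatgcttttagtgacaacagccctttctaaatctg
Both windows hold 1 M-CAT, which reads GGAATG on the printed strand and does not overlap another marked element. CATTCC is found in 12.6% of all 32851 RefSeq promoter windows of this length. GGTGAC, read here as GTCACC, was found in the Myh6 window and not in the Myh7 window, and 13.02% of all windows hold it. A second Myh7 start and the starts of Myh7b, Mybpc3 and Mybphl had neither set of letters in their windows.

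Each library held between 27646471 and 34693673 counts in coding genes. The 16 cardiomyocyte markers other than the members, troponins and cardiac actin among them, summed to 17935 to 26412 CPM (reads of a gene scaled to library size, with TMM factors) on stiff and 17900 to 31954 CPM on soft. The 12 fibroblast markers summed to 11558 to 16465 CPM on stiff and 12018 to 20029 CPM on soft, and the 12 mural cell markers to 3041 to 4200 and 3082 to 4749 CPM. Acta2, Tagln and Des made up most of the mural sum in every library. Pdgfrb had 2377 to 3892 counts per library, while Rgs5 had 6 to 226 and Kcnj8 0 to 59. The mural sum is therefore not read as an amount of mural cells. Endothelial, leukocyte and epicardial markers summed to at most 383, 189 and 864 CPM in any library. Of the tested markers in these lists, estimates were higher on stiff for 7 of 16 cardiomyocyte, 4 of 12 fibroblast, 1 of 12 mural, 8 of 10 endothelial, 5 of 10 leukocyte, 3 of 8 epicardial and 1 of 4 skeletal genes, and lower for the others, with medians between -0.38 and 0.10. Without both libraries numbered 4, described next, the higher ones were 10, 4, 5, 8, 6, 4 and 2 in the same order of lists. Of 10 skeletal muscle markers, the defining factors Myod1, Myf5, Myf6 and Pax7 were at 0 in every library, while the factor Myog had 3 counts in stiff 1, 6 in stiff 4 and 18 in soft 3 and was at 0 in the other 5. The skeletal sum was at most 26.6 CPM. In bulk RNA, fewer cells of a type and less RNA per cell cannot be told apart.

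The libraries numbered 4 on both substrates stood apart in these genes, and values without both are given for each member, each ratio and each list of related genes, a choice made after seeing the data. They held the 2 highest levels of Myh6 and the 2 lowest of Myh7. They also held the highest cardiomyocyte marker sums, 26412 CPM in stiff 4 and 31954 CPM in soft 4, against 17900 to 20213 CPM in the other 6 libraries. Actc1 alone held 7745 CPM in stiff 4 and 10552 CPM in soft 4, against 3905 to 5247 CPM in the other 6. Not every marker followed the sum. Tcap was lowest of the stiff libraries in stiff 4 (6.28 CPM), and Atp2a2 was lower in soft 4 (3639 CPM) than in soft 1 (4103 CPM). The part of cell composition in the Myh6 and Myh7 levels was not tested. Over all tested genes, deviations of same-numbered libraries from their group means correlated weakly, at 0.104 to 0.305, as described with the processing.

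Myh6, the gene of the fast alpha chain, gave no difference between substrates that passed the test. The stiff libraries held 3964, 2765, 3145 and 5187 CPM, against 3432, 2634, 2667 and 7425 CPM in the soft libraries. The ranges overlapped, and soft 4 alone was above every stiff library. The mean was 3765 ± 1072 CPM on stiff and 4039 ± 2287 CPM on soft (SD, n = 4 each). The log2 fold change was -0.10 (SE 0.32, 95% interval -0.80 to 0.59, edgeR adjusted p = 0.99997). Between same-numbered libraries, stiff held 1.16, 1.05 and 1.18 times the soft level in numbers 1 to 3 and 0.699 times in number 4. With the number as a replicate block the estimate was 0.00066, with an interval of -0.27 to 0.27. It was 0.38 (SE 0.22) without soft 4 and 0.18 (SE 0.19) without both libraries numbered 4.

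Myh7, the gene of the slow beta chain, ran the other way across the libraries numbered 4. The stiff libraries held 1688, 1449, 2184 and 502 CPM, against 1243, 1481, 1626 and 780.0 CPM in the soft libraries. Within each substrate library 4 was the lowest and library 3 the highest. The mean was 1456 ± 705 CPM on stiff and 1283 ± 370 CPM on soft (SD, n = 4 each). Stiff over soft, this was 0.18 on the log2 scale (SE 0.37, 95% interval -0.64 to 1.00, edgeR adjusted p = 0.99997). With the replicate block the estimate was 0.053, with an interval of -0.25 to 0.36, and without stiff 3 it was -0.080. Without stiff 4 it was 0.47 (SE 0.24), with an unadjusted p of 0.0716. Without both libraries numbered 4 it was 0.30 (SE 0.19), with an unadjusted p of 0.140 and an adjusted p of 0.99999.

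**Figure D1:**
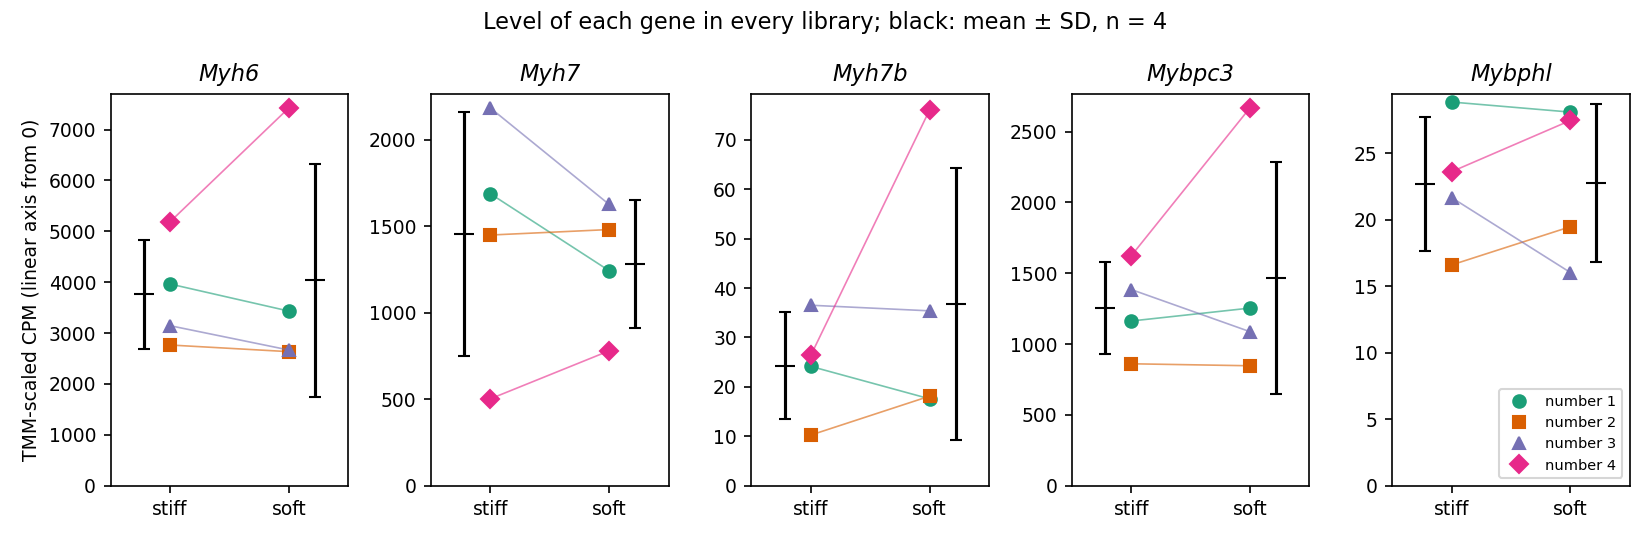
TMM-scaled CPM of the 5 genes (vertical axes from 0) in the 4 stiff libraries, left, and the 4 soft libraries, right, with lines joining libraries of the same number and black bars for mean ± SD. Library 4 (diamonds) is the highest for Myh6, at 5187 CPM on stiff and 7425 CPM on soft, and the lowest for Myh7, at 502 CPM on stiff and 780.0 CPM on soft.

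The ratio of Myh7 to Myh6 reads, which needs no scaling between libraries, differed 7.17-fold between the highest and lowest library. It was 0.426, 0.524, 0.694 and 0.0969 in the 4 stiff libraries, against 0.362, 0.562, 0.610 and 0.105 in the 4 soft libraries. The order of the numbers was the same on both substrates, with library 3 highest, then 2, 1 and 4. In libraries 4 Myh6 reads outnumbered Myh7 reads 10.3-fold on stiff and 9.52-fold on soft, and in the other 6 libraries 1.44-fold to 2.76-fold. Mean log2 ratios were -1.51 ± 1.27 on stiff and -1.57 ± 1.17 on soft (SD, n = 4 each), a difference of 0.051. The two-sided exact permutation p was 0.886, where the smallest p that 4 against 4 can give is 0.0286. It was 0.886 as well after adjustment over the 6 ratios computed, by which no ratio alone could pass 0.05, even at the smallest p. Between same-numbered libraries the log2 ratio on stiff minus that on soft was 0.23, -0.10, 0.19 and -0.12. The range over all libraries, which no such difference can exceed, was 2.84. The difference was 0.11 without both libraries numbered 4. It was -0.51 without soft 4 and 0.67 without stiff 4, and its sign turned in 4 of the 8 cases with 1 library left out. These are ratios of reads, and since transcript lengths were not used here they give no order of the chains per molecule.

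**Figure D2:**
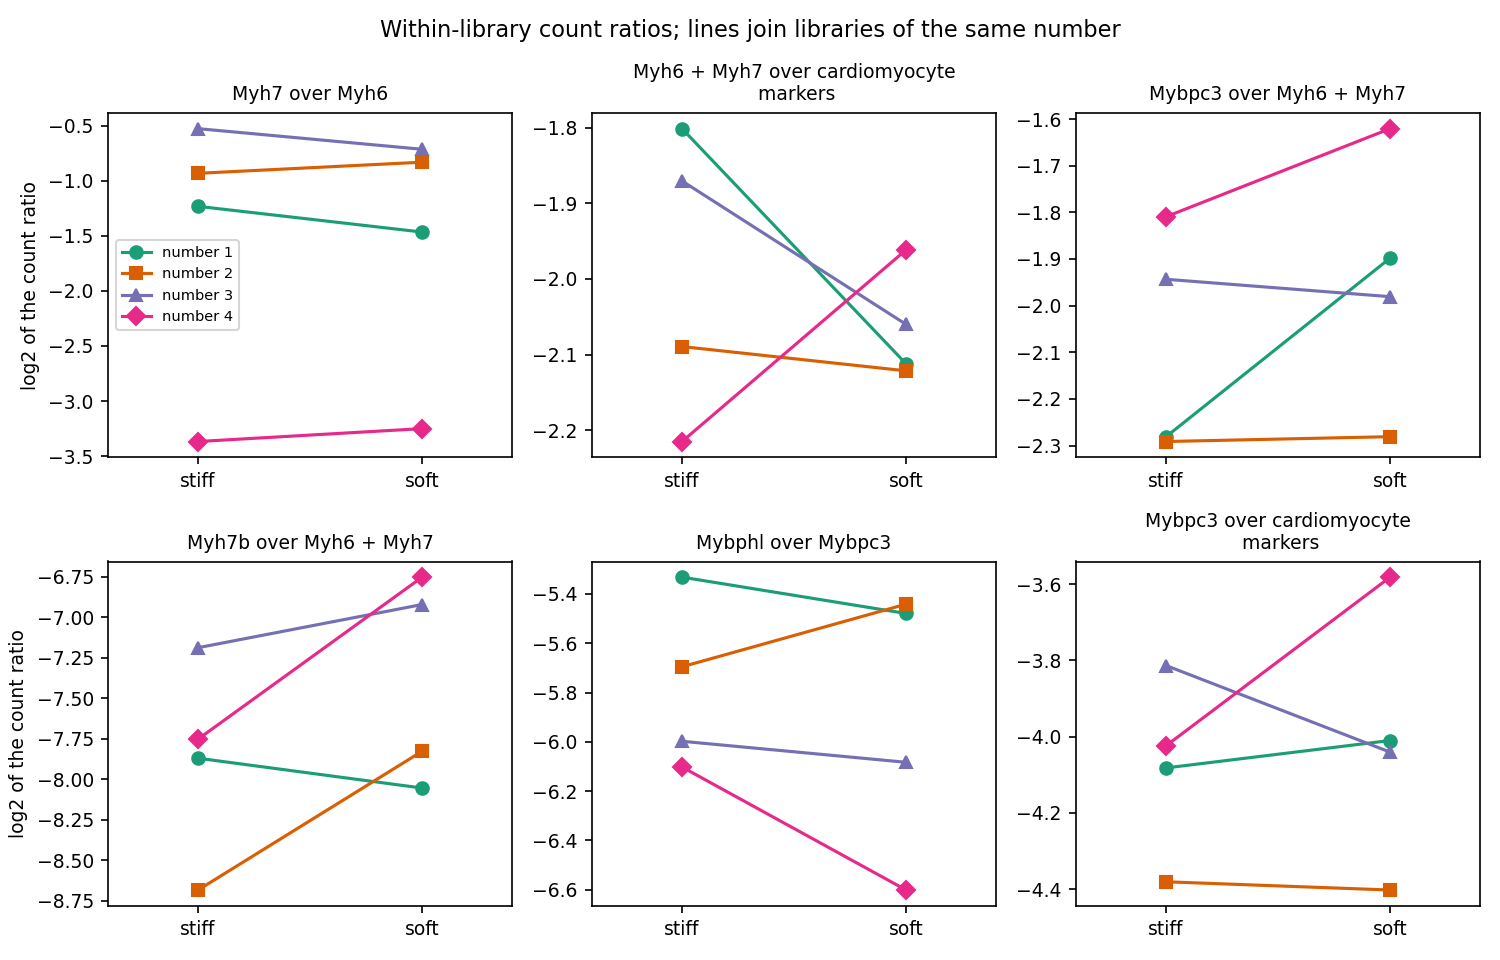
Log2 of 6 within-library count ratios on stiff (left) and soft (right), with lines joining libraries of the same number. In the Myh7 to Myh6 panel the lines are nearly flat and library 4 lies far below the others, at ratios of 0.0969 on stiff and 0.105 on soft.

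Myh7 overlaps Mhrt (Myheart), a noncoding RNA read from the opposite strand, over 3666 bases of its span. In the adult mouse Mhrt is known as a cardiac RNA that is repressed under pressure overload. Mhrt had 428, 267, 257 and 1406 counts in the stiff libraries, against 606, 331, 312 and 1640 counts in the soft libraries. As for Myh6, both libraries numbered 4 were the highest, and the other 6 did not exceed 606 counts. The strand handling of the counting is not given in the sources used here, and reads of Myh7 and Mhrt in their shared part cannot be told apart without it. Mhrt counts amounted to 0.353% to 1.61% of the Myh7 counts in 6 libraries, and to 8.17% in stiff 4 and 6.94% in soft 4. The Mhrt log2 fold change was -0.41 (SE 0.63, edgeR adjusted p = 0.99997). Myh6 and Myh7 are also close in sequence, and how reads that match both were counted is not given in the sources used here.

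Myh7b, whose transcript is mostly not turned into protein in mammalian hearts, was the most variable of the 5 genes, with a 7.42-fold difference between its highest and lowest library. The stiff libraries held 24.1, 10.2, 36.5 and 26.4 CPM, against 17.6, 18.1, 35.4 and 76.1 CPM in the soft libraries. Soft 4 was the highest and stiff 2 the lowest, and the groups overlapped. The mean was 24.3 ± 10.8 CPM on stiff and 36.8 ± 27.5 CPM on soft (SD, n = 4 each). The estimate on the log2 scale was -0.60 (SE 0.49, 95% interval -1.68 to 0.48, edgeR adjusted p = 0.99997). It rested on soft 4, without which it was 0.046, and without both libraries numbered 4 it was 0.0031 (SE 0.42). With the replicate block it was -0.46 (SE 0.26), with an unadjusted p of 0.0883. An unadjusted p under 0.05 was seen for Myh7b with limma-voom and the block, at 0.0168 (adjusted p = 0.99991). Myh7b did not follow Myh7. It was lowest in library 2 on stiff and in library 1 on soft, where Myh7 was lowest in library 4.

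Mybpc3, the brake on myosin heads, was high in the libraries numbered 4, as Myh6 was. The stiff libraries held 1163, 861, 1385 and 1623 CPM, against 1254, 847, 1088 and 2668 CPM in the soft libraries. Library 4 was the highest and library 2 the lowest on each substrate. The mean was 1258 ± 325 CPM on stiff and 1464 ± 820 CPM on soft (SD, n = 4 each). On the log2 scale stiff differed from soft by -0.22 (SE 0.32, 95% interval -0.91 to 0.47, edgeR adjusted p = 0.99997). Soft 4 decided its sign, and without that library the estimate was 0.25 (SE 0.21). Without both libraries numbered 4 it was 0.10 (SE 0.20). With the replicate block it was -0.11 (SE 0.14).

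Mybphl was the least variable member, with a 1.80-fold difference between the highest and lowest library. The stiff libraries held 28.9, 16.6, 21.7 and 23.6 CPM, against 28.1, 19.5, 16.04 and 27.5 CPM in the soft libraries. Library 1 was the highest on both substrates. The mean was 22.7 ± 5.07 CPM on stiff and 22.8 ± 5.97 CPM on soft (SD, n = 4 each). The log2 fold change was -0.0056 (SE 0.27), with a 95% interval of -0.58 to 0.57 and an edgeR adjusted p of 0.99997. The sign of so small an estimate changed with the replicate block, at 0.0053, with other scalings, and without both libraries numbered 4, at 0.082 (SE 0.31).

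In all, 0 of the 5 genes passed at an adjusted p under 0.05, as did 0% of the 14059 genes tested by edgeR in either direction, and 0 of the 5 had an unadjusted p under 0.05, against 0.925% of all genes. The count was also 0 in DESeq2, where 322 genes had an unadjusted p under 0.05, and in limma-voom, where 181 did. The edgeR share of 0.925% is below the share of 0.05 that chance alone would give. The test on substrate alone thus gave few small p-values for any gene. Its missing calls are therefore not read as the absence of a difference, and the reason for the shortfall was not tested. The stiff and soft libraries overlapped for each of the 5, and did not overlap for 1.29% of all genes. Of the 5 estimates, 1 was higher and 4 were lower on stiff, where the median of all genes was -0.011. This tally was not stable, with 3 higher and 2 lower under the replicate block and 5 higher without both libraries numbered 4. The 95% intervals ran from 0.576-fold to 1.51-fold for Myh6 and from 0.643-fold to 2.01-fold for Myh7. With the replicate block they ran from 0.828-fold to 1.21-fold for Myh6 and from 0.841-fold to 1.28-fold for Myh7. The block intervals rest on a pairing taken from these data and on a spread that edgeR estimates in part across genes. Single pairs of same-numbered libraries ranged from 0.699-fold to 1.18-fold for Myh6 and from 0.644-fold to 1.36-fold for Myh7. The block intervals are therefore not read as bounds on the effect.

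**Figure D3:**
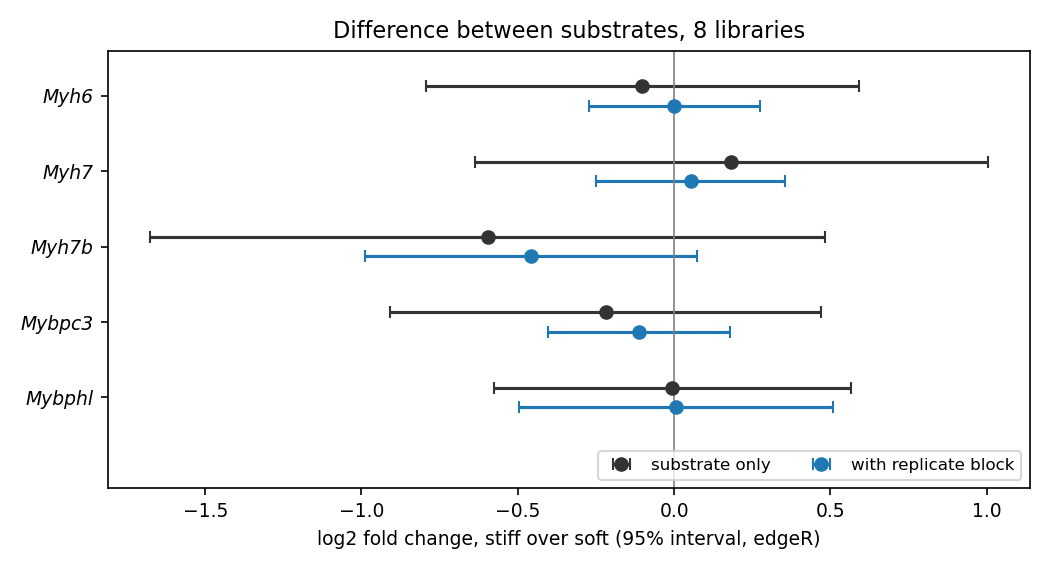
Log2 fold change of stiff over soft with 95% intervals for the 5 genes from edgeR, fitted on substrate alone (dark) and with the library number as a replicate block (blue). All 10 intervals include 0, and that of Myh6 spans -0.27 to 0.27 with the block and -0.80 to 0.59 without it. The pairing used by the block was taken from the same data.

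The members were also set against each other and against the other cardiomyocyte transcripts, as ratios of reads within each library. Myh6 and Myh7 reads together amounted to 0.253 ± 0.0332 of the reads of the 16 cardiomyocyte markers on stiff and to 0.239 ± 0.0124 on soft (SD, n = 4 each), with an exact permutation p of 0.514. This ratio was the steadiest of the 6, with 1.33-fold between the highest and lowest library. Mybpc3 reads per heavy chain read were 0.206, 0.204, 0.260 and 0.285 in the stiff libraries, against 0.268, 0.206, 0.253 and 0.325 in the soft libraries (exact permutation p = 0.514). Library 4 was the highest on both substrates.

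Myh7b reads came to 0.00455 ± 0.00182 of the heavy chain reads on stiff and 0.00642 ± 0.00274 on soft (SD, n = 4 each, exact permutation p = 0.314). The log2 difference was -0.48. Mybphl reads came to 0.0186 ± 0.00463 of Mybpc3 reads on stiff and 0.0176 ± 0.00616 on soft (SD, n = 4 each, exact permutation p = 0.771). In both groups this share was lowest in library 4. Mybpc3 over the cardiomyocyte markers was 0.0599 ± 0.00950 on stiff and 0.0634 ± 0.0150 on soft (SD, n = 4 each, exact permutation p = 0.771). After adjustment over the 6 ratios each p was 0.886. Without both libraries numbered 4 the log2 difference was 0.18 for both heavy chains over the markers, -0.12 for Mybpc3 and -0.31 for Myh7b per heavy chain, -0.0071 for Mybphl over Mybpc3 and 0.059 for Mybpc3 over the markers.

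Other genes of the motor and its surroundings are given by lists chosen for this gene family, and 0 members of any list passed at an adjusted p under 0.05 in edgeR. Of 11 other myosin heavy chain genes 6 were tested, and 5 of these had lower estimates on stiff (median of the 6, -0.48 on the log2 scale), as did 5 without both libraries numbered 4 (median -0.42), while 2 of the 11 were at 0 in every library. Myh9 and Myh10 encode nonmuscle chains of the cytoskeleton. The log2 estimate was -0.16 for Myh9 (SE 0.17) and 0.03 for Myh10 (SE 0.23). Myh10 held 547 CPM in stiff 4 and 553 CPM in soft 4, against 939 to 1114 CPM in the other 6 libraries, so that it was low where Myh7 was low. The smooth muscle chain Myh11 stood at 7.95 ± 3.01 CPM on stiff and 12.2 ± 4.998 CPM on soft (SD, n = 4 each). The neonatal skeletal chain Myh8 had 1.05 to 5.22 CPM on stiff and 4.16 to 5.44 CPM on soft. Of the other binding proteins, Mybpc2, the fast skeletal form, stood at 25.8 ± 8.43 CPM on stiff and 24.8 ± 8.66 CPM on soft, and Mybph reached at most 1.02 CPM, in stiff 1. Both estimates were above 0, with and without the libraries numbered 4.

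The 4 cardiac myosin light chain genes, whose products wrap the lever arm of the heavy chains, had estimates below 0 on stiff (median -0.10 on the log2 scale). These signs rested on the libraries numbered 4, without which all 4 were above 0 (median 0.16), from 0.097 for Myl7 to 0.34 for Myl4. With the replicate block 2 were higher and 2 lower. Myl2, the ventricular regulatory chain, held 1551 to 1890 CPM on stiff and 1209 to 2524 CPM on soft. The essential chain Myl4, of atria and the fetal ventricle, held 676 CPM in stiff 4 and 1083 CPM in soft 4, the highest of each substrate. Of 8 tested thick filament and M-band genes, 3 had higher and 5 lower estimates, against 5 higher and 3 lower without both libraries numbered 4. Titin (Ttn), the spring and ruler of the thick filament, was at 0.20 on the log2 scale (SE 0.23), and Obsl1, an M-band linker, at -0.35 (SE 0.26).

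Among 12 genes of myosin folding and turnover, 5 estimates were higher and 7 lower (median -0.014 on the log2 scale), against 7 higher and 5 lower without both libraries numbered 4. Unc45b, the muscle chaperone that folds the myosin head, had 36.3, 29.9, 52.7 and 88.9 CPM in the stiff libraries, against 46.1, 32.6, 45.3 and 111 CPM in the soft libraries. It was highest in library 4 on both substrates, as Myh6 was. The ubiquitin ligase gene Trim63 was at -0.13 on the log2 scale (SE 0.20) and the chaperone gene Hsp90ab1 at -0.02 (SE 0.17). Of 13 kinases and phosphatases acting on myosin or on myosin-binding protein C, 9 estimates were higher and 4 lower (6 and 7 without both libraries numbered 4), with Ppp1r12b, a targeting subunit of myosin phosphatase, at 0.08 (SE 0.16) and Camk2d, a calcium-dependent kinase of the heart, at -0.04 (SE 0.17).

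Of 20 transcription factors known to act on the cardiac myosin genes, 11 had higher and 9 lower estimates (median 0.014 on the log2 scale), and 9 had higher and 11 lower ones without both libraries numbered 4. Nfatc4, with the smallest unadjusted edgeR p of the list (0.0976), was at -0.44 (SE 0.25), and at -0.38 (SE 0.26) without both libraries numbered 4. Gata6 was at -0.24 (SE 0.19), and at -0.45 (SE 0.17) without them. Tbx20 had 735, 873, 514 and 1266 CPM in the stiff libraries, against 803, 683, 453 and 800.3 CPM in the soft libraries. Its log2 fold change was 0.31 (SE 0.25). Nkx2-5 stood at 4.66 to 6.83 CPM on stiff and 5.31 to 15.6 CPM on soft, with the highest value in soft 4. Thra and Thrb, the thyroid hormone receptor genes, were picked after seeing their values. Thra ran from 49.3 to 70.3 CPM on stiff and from 50.4 to 68.4 CPM on soft. Thrb held 27.9, 25.1, 7.56 and 15.7 CPM in the stiff libraries, against 34.5, 22.1, 9.14 and 11.4 CPM in the soft libraries, and so was lowest in library 3 of each. In the list of fetal and stress genes 4 of 6 estimates were higher, and 5 of 6 without both libraries numbered 4. Nppa was at 0.11 (SE 0.21), and at 0.39 (SE 0.18) without both. Nppb was at 0.12 (SE 0.23), and at 0.22 (SE 0.27) without both. Gdf15 went the other way, at -0.70 (SE 0.40), and at -0.40 (SE 0.44) without both. The repeat protein gene Xirp2 held 1126 CPM in stiff 4 and 649.7 CPM in soft 4, against 141 to 221 CPM in the other 6 libraries.

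Atrial and ventricular genes gave no call either. Of 12 atrial genes 3 estimates were higher and 9 lower, and of 7 ventricular genes 7 were lower, with medians of -0.057 and -0.28. Without both libraries numbered 4, 8 atrial estimates were higher and 4 lower, and 3 ventricular ones were higher and 4 lower. The medians were then 0.071 and -0.12. In libraries 4, where the Myh7 to Myh6 ratio was low, the atrial list summed to 9182 CPM on stiff and 12650 CPM on soft, against 8391 to 11418 CPM in the other 6 libraries. The ventricular list summed to 3892 and 5017 CPM in them, against 3251 to 4005 CPM. Nppa and Pam made up most of the atrial sum, and Nppa is also in the list of fetal and stress genes. Myl7 was lowest of the stiff libraries in stiff 4 (436 CPM) and highest of the soft ones in soft 4 (742 CPM). The part of chamber origin in the ratio was not tested.

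The genes whose pattern over the 8 libraries was most like that of each member were found by the root mean square (RMS) difference of centred log2 levels, among 6177 genes with a mean of at least 32 CPM. Nearest to Myh6 were Popdc2, a membrane protein gene of the heart, at 0.12, then Myo18b at 0.15 and Asb2 at 0.16, where the median of all genes was 0.56. Nearest to Mybpc3 was Eno3, the muscle enolase gene, at 0.079, against a median of 0.57, followed by Slc29a1 at 0.11 and Trim47 at 0.12. Nearest to Myh7b were Hist1h1d at 0.28, Slc16a3 at 0.30 and Pdlim7 at 0.32, against a median of 0.87, and nearest to Mybphl were Gpam at 0.14, Vps35l at 0.15 and Rftn1 at 0.15, against a median of 0.42.

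Nearest to Myh7 was Igf2, the gene of a fetal growth factor, at 0.21, then Flcn at 0.26 and Colec12 at 0.28, against a median of 0.69. Nearest to the log2 Myh7 to Myh6 ratio was H19, an imprinted noncoding RNA expressed in the fetus that neighbours Igf2 in the genome, at 0.19, against a median of 1.08. Cnnm2 at 0.30 and Ptprz1 at 0.36 followed. H19 held 714.8, 963, 1162 and 148 CPM in the stiff libraries, against 609.9, 860.3, 1293 and 238 CPM in the soft libraries. Igf2 held 102, 112, 144 and 33.7 CPM in the stiff libraries, against 88.9, 85.9, 143 and 43.1 CPM in the soft libraries. For both genes library 3 was the highest and library 4 the lowest on each substrate, as for the ratio. This likeness is a description over 8 libraries, which share their numbers in pairs.

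**Figure D4:**
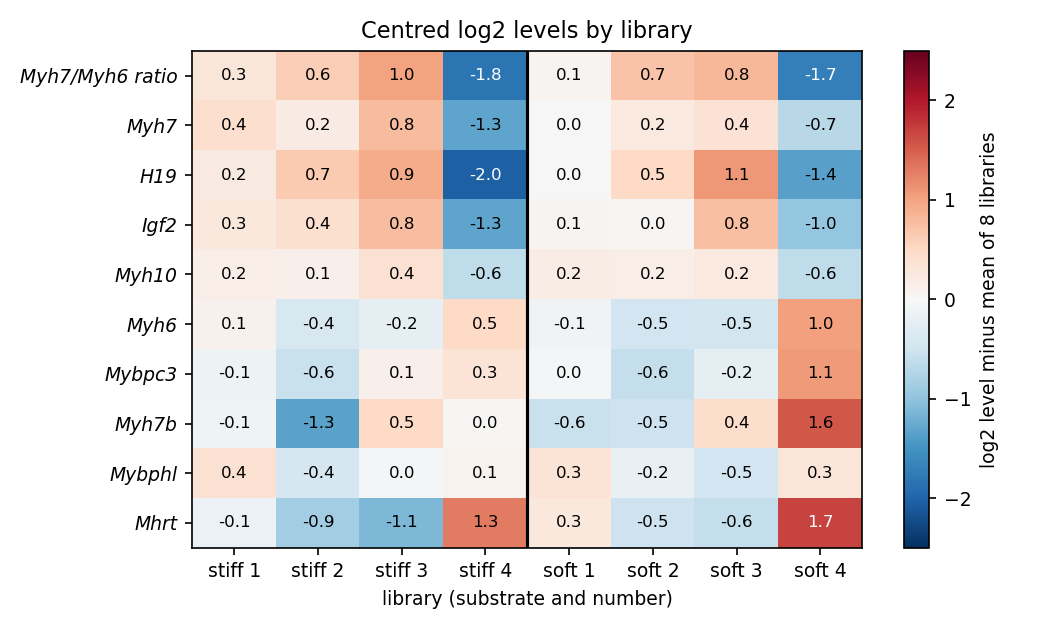
Centred log2 levels (log2 level minus the mean of the 8 libraries) of the Myh7 to Myh6 ratio, the 5 members and 4 other genes, with the 4 stiff libraries left of the 4 soft ones. In both libraries numbered 4 the ratio, Myh7, H19, Igf2 and Myh10 are low (the ratio at -1.83 in stiff 4 and -1.71 in soft 4), while Myh6, Mybpc3 and Mhrt are high.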

How the data were processed

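RNA sequencing libraries were grouped by the substrate label, 4 stiff and 4 soft. The authors deposited raw read counts per gene, whole numbers for 29844 Ensembl genes, of which 29150 matched a symbol. A separate noncoding table was not used here. Per the submitters' processing notes, with no roles given, the build was GRCm38 and the tools included HTSeq 0.6.1, TopHat2 2.0.14 with Bowtie2, edgeR and DESeq2, and FastQC 0.11.2. The labels do not say whether libraries came from separate litters or cultures, so p-values reflect only how far these libraries differ, in part perhaps for technical reasons. No pair of libraries agreed within sampling noise.

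The main test used edgeR 4.0.16 under R 4.3.3, and alternatives used DESeq2 1.42.0 and limma 3.58.1. Low genes were dropped by filterByExpr (minimum count 10, minimum total 15), scaled by TMM and compared by the robust quasi-likelihood F test on substrate, with Benjamini-Hochberg adjustment over all 14059 genes. Levels are TMM-scaled CPM. Within-library ratios were compared by two-sided exact permutation in SciPy 1.17.1. The members and gene lists were chosen with earlier results of these data known. Named genes were the members, from each list up to 4 genes ranked by p and up to 2 ranked by level, and the 3 genes nearest each member, of which a part is printed. The pipeline was tested on simulated counts. The outcome is not reported here, so this gives no measure of what fold change could have been found. Promoter and microRNA sequences are from RefSeq.

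A replicate number is the last digit of a library's code, which is also its accession order. Deviations from the group means, over 14059 genes, correlated between same-numbered libraries at 0.104, 0.181, 0.128 and 0.305 for numbers 1 to 4. All exceed 0.1, so the numbers were taken to pair the libraries. However, stiff 1 correlated more with soft 2 (0.130) than with soft 1, and stiff 2 with soft 1 reached 0.112. The cut of 0.1 thus does not tell numbers 1 and 2 apart. This pairing comes from the data, not the labels. Planned correlations among members over the libraries are not reported, since libraries were paired and library 4 stood apart. Without transcript lengths, levels were not ordered between genes. Counting precision was not limiting for the members, whose lowest count was 301.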

Additional observations from a re-analysis of the deposited data

Results flagged for a closer look

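In groups of 4 libraries, a level was singled out when its gap to the nearest library in units of the group's range exceeded Dixon's 95% critical value. This was met by 16 of 150 groups examined. Chance flags about 1 in 20, but the groups share libraries, and 36 of them, with 4 of the 16, are of genes chosen for their likeness to a member (Myo18b, Pdlim7, Trim47 and Cnnm2), so the count is a description. Soft 4 was the library in 10 of the 16. It was highest for Myh6 (7425 CPM, next 3432), for Unc45b (111 CPM), Nkx2-5 (15.6 CPM), Xirp2 (649.7 CPM), Myo18b (304 CPM), Pdlim7 (203 CPM) and Trim47 (103 CPM), and for the cardiomyocyte marker sum (31954 CPM). It was lowest for Myh10 (553 CPM) and Cnnm2 (9.04 CPM). Stiff 4 was highest for Xirp2 (1126 CPM) and Gata6 (148 CPM) and lowest for Nfatc4 (17.1 CPM).

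The other 3 were Obsl1 in stiff 2 (53.5 CPM), Trim54 in soft 3 (8.96 CPM) and Myom3 in stiff 3, which was listed at 0, with 0.701 CPM the nearest. The causes were not tested.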

How the results depend on the processing

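No member passed under any alternative run, and the replicate block changed no call of a member. No ratio passed either, but for most alternatives this was fixed in advance. The smallest possible p of a ratio was 0.125 with the block and 0.1 without both libraries numbered 4. With 1 library left out it also lies above 0.05, and the summed counts of each group were not tested. These runs therefore do not show that the ratio calls are robust. The 8 coding genes that limma-voom called with the block, an alternative added after seeing the data, include no member. Coding genes at an unadjusted p under 0.05 numbered 130 as reported, 360 with the block and 122 to 272 with 1 library left out. Signs near 0 turned. Mybphl was at 0.0033 with RLE factors, 0.0036 with DESeq2, 0.055 when scaled by the cardiomyocyte marker sum, 0.0053 with the edgeR block and 0.015 with the DESeq2 block. Myh6 was at 0.031 with that scaling, 0.00066 with the edgeR block and 0.0100 with the DESeq2 block. Without both libraries numbered 4, also chosen after seeing the data, log2 fold changes were 0.18 for Myh6, 0.0031 for Myh7b, 0.10 for Mybpc3 and 0.082 for Mybphl, and log2 ratio differences were 0.059 for Mybpc3 over the markers and -0.0071 for Mybphl over Mybpc3. With 1 library left out, estimates ran from -0.30 (without stiff 4) to 0.38 (without soft 4) for Myh6, -0.080 to 0.47 (without stiff 4) for Myh7, -0.86 to 0.046 for Myh7b, -0.41 to 0.25 for Mybpc3 and -0.14 to 0.12 for Mybphl. Ratio differences ran from -0.51 to 0.67 for Myh7 over Myh6, -0.20 to 0.076 for Mybpc3 over the markers, -0.11 to 0.27 for Mybphl over Mybpc3, 0.0056 to 0.14 for both heavy chains over the markers, -0.25 to -0.028 for Mybpc3 per heavy chain and -0.71 to -0.21 for Myh7b per heavy chain. In the replicate block of 4 pairs, exact sign-flip p-values of the ratios ran no lower than 0.250, where 0.125 is the smallest possible. The alternatives for the order of levels were not run, since transcript lengths were not used here.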
